A study of Homo sapiens with 5 samples.

Results

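Major histocompatibility complex (MHC) class I molecules show peptides from inside the cell to CD8 T cells. The proteasome cuts proteins into peptides, the TAP transporter carries them into the endoplasmic reticulum, and tapasin helps to load them onto a heavy chain paired with beta-2-microglobulin. Transcription of these genes depends on NLRC5, on an enhanceosome of RFX, CREB/ATF and NF-Y factors, and on interferon and NF-kB signalling, and many tumours carry little class I on their surface. The 9 genes described here are the heavy chains HLA-B and HLA-C, their light chain B2M, the transporter subunits TAP1 and TAP2, tapasin (TAPBP), the immunoproteasome subunits PSMB8 and PSMB9, and the transactivator NLRC5. They were chosen by name from 20037 protein-coding genes on the main chromosomes. A peak was counted for a gene when it lay in the gene body or within 1 kb of either gene end in hg38, with RefSeq gene positions (GRCh38.p14).

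The data are chromatin immunoprecipitation (ChIP-seq) peak lists from an established human line of pancreatic cancer cells, MIA PaCa-2. MYC was mapped in a MIA PaCa-2 line with a tet-inducible short hairpin against MED30 (shMED30), after 3 days of doxycycline and without it, and in parental cells, where the Mediator subunits MED30 and MED17 were mapped too. Mediator is the complex that connects transcription factors to RNA polymerase II. Each of the 5 groups held 1 library, so differences between lists have no replicate check and no p-values are given. MYC chromatin was fixed in 1% formaldehyde for 10 min, whereas the Mediator samples first received 20 min of disuccinimidyl glutarate, a protein crosslinker, at 2 mM, so fixation differs wherever MYC stands beside Mediator. Knockdown of MED30 could not be checked from peak lists.

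The lists held 4621 MYC peaks with doxycycline, 7158 without it, 14331 in parental cells, 12040 MED30 peaks and 13172 MED17 peaks. Fold enrichment is the authors' ratio of the fragment pileup at the summit to the local background, with 1 added to each. Folds of lists that differ in depth are therefore not on 1 scale. A percentile below is the rank of a fold within its own list. The lowest local background among the peaks of a list, recovered from these values, served as a measure of depth. It was 0.186 fragments with doxycycline, 0.310 without, 2.56 for parental MYC, 1.65 for MED30 and 1.60 for MED17. The smallest summit pileup of any peak was 3, 4, 10, 8 and 8 fragments in the same 5 lists. As to the cell type, the epithelial genes KRT8, KRT18, KRT19 and SOX9 had peaks of both Mediator subunits, EPCAM and CDH1 had none, and 0 of 4 leukocyte genes (PTPRC, CD3E, CD79A, LYZ) had a peak in any list. A peak is a site of binding and not a level of RNA.

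Few of the class I genes carried a peak. With MYC, 0 of 9 had one in the doxycycline list, 0 of 9 in the no-doxycycline list and 1 of 9 (NLRC5) in the parental list. Over all protein-coding genes the shares were 7.41%, 11.0% and 44.2%. Of Mediator, 2 of 9 genes (NLRC5 and B2M) had a MED30 peak and 3 of 9 (NLRC5, B2M and TAPBP) a MED17 peak, where 46.4% and 52.8% of all genes did. Both subunits were at 2 of 9 genes and at 43.5% of all genes. The other 6 genes, HLA-B, HLA-C, TAP1, TAP2, PSMB8 and PSMB9, had no peak in any of the 5 lists, as did 41.1% of all genes. The 3 genes with a peak had 8 peaks between them.

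**Figure D1:**
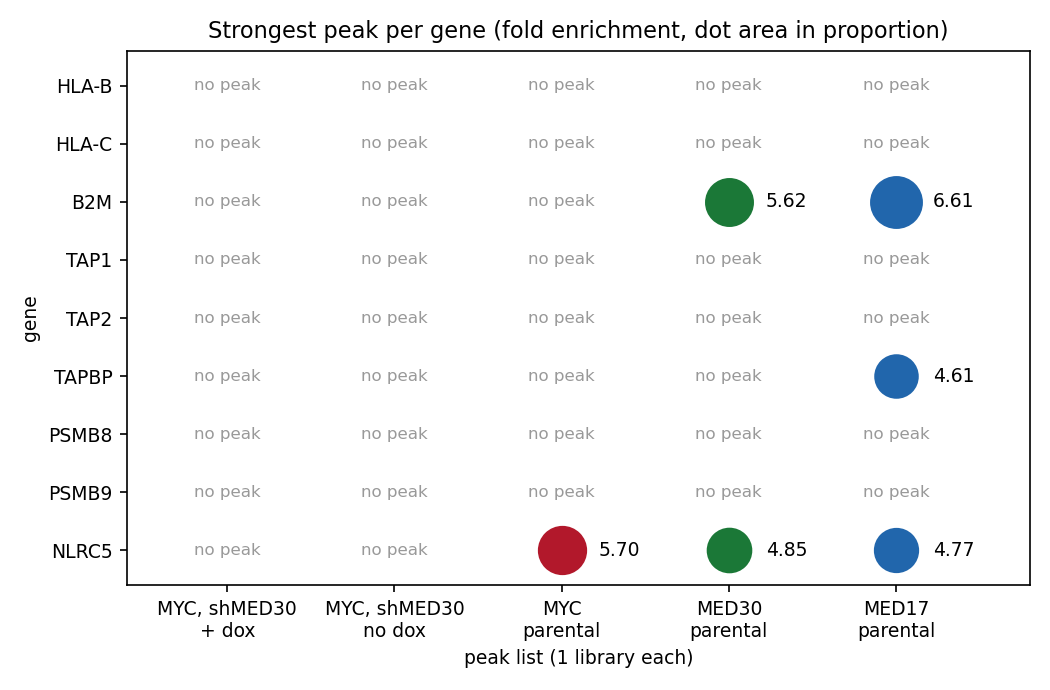
Strongest peak at each of the 9 genes (rows) in each of the 5 lists (columns), as the authors' fold enrichment, printed beside a dot of proportional area. The dots are confined to B2M, TAPBP and NLRC5, with folds between 4.61 and 6.61, and both lists from the shMED30 line are empty for these genes.

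The promoters of B2M, TAPBP, HLA-B and HLA-C are shown because B2M and TAPBP had Mediator peaks at or near them and the heavy chain pair had none. They are RefSeq sequences of GRCh38.p14, from 250 bases before to 50 after the gene start, read on the gene's strand; 8 of the 9 genes matched the table, and NLRC5 did not. Capitals mark every match, on either strand, of CACGTG (the E-box that MYC binds with MAX), CACGCG (a variant E-box), CCAAT (NF-Y) and TGACG (CREB/ATF). They also mark GAAA, 2 bases of any kind and GAAA (a strict form of the interferon response motif of IRF factors). The last pattern marked is GGG, 2 bases of any kind, T, 2 bases of any kind and CC (a loose form of the NF-kB site).
B2M, chr15:44711267-44711566, plus strand: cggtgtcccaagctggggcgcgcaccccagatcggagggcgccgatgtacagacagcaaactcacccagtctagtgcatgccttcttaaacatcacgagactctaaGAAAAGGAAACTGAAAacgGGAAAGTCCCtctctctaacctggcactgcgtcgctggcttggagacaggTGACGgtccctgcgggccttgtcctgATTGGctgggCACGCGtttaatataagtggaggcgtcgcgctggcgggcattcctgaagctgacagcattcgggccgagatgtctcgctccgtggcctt
TAPBP, chr6:33314029-33314328, minus strand: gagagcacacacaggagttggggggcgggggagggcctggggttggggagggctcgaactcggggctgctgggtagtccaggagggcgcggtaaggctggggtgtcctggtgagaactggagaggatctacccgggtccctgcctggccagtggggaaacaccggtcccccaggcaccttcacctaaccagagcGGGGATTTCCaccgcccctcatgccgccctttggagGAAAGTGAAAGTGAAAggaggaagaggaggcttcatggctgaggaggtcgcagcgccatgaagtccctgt
HLA-B, chr6:31357130-31357429, minus strand: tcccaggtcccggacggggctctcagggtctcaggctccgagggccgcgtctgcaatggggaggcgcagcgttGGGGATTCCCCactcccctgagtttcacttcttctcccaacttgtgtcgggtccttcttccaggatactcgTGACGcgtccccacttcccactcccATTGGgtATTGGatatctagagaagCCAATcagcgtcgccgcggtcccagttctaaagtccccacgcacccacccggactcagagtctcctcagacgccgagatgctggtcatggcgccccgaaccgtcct
HLA-C, chr6:31272043-31272342, minus strand: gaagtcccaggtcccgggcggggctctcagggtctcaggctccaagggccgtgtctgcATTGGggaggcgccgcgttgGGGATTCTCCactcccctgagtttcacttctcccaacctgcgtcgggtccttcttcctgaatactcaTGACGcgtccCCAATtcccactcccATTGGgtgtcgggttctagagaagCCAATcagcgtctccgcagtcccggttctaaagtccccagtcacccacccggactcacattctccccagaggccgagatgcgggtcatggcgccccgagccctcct

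The MYC E-box CACGTG was in none of the 8 promoters and in 8.34% of the 22199 promoters of protein-coding genes in the table. The variant CACGCG was in 1 of 8, that of B2M, from -39 to -34 before the start, against 14.3% of all promoters. The interferon response motif, in the strict form searched, was in 5 of 8 (B2M, PSMB8, TAP1, TAP2 and TAPBP) and in 3.17% of all. PSMB8 and TAP1 have 2 annotated starts each, and either was counted. Looser forms were not searched, so the lack of a match in HLA-B, HLA-C and PSMB9 does not show that they lack such an element. In B2M, interferon response matches at -144 to -135 and -138 to -129 overlapped each other, as did those at -20 to -11 and -14 to -5 in TAPBP. TGACG was in 6 of 8 (27.9% of all), CCAAT in 5 of 8 (34.7%) and the NF-kB motif in 5 of 8 (24.8%). The HLA-B and HLA-C promoters were identical at 269 of 304 aligned positions (88.5%), with TGACG at -106 to -102 in HLA-B and at -105 to -101 in HLA-C. A match is a description of these letters and not a site of binding.

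NLRC5, the class I transactivator, was the gene with all 3 proteins. It spans 56989557 to 57083520 on chromosome 16, and its peaks of MYC, MED30 and MED17 overlapped at the lower end. The parental MYC peak (56989347 to 56989862) had a fold of 5.70 at percentile 75.5, with 33 fragments at the summit over a local background of 4.97. The MED30 peak (56989311 to 56989791) had a fold of 4.85 at percentile 51.2, with 19 fragments over 3.12. The MED17 peak (56989415 to 56989933) had a fold of 4.77 at percentile 43.4, with 21 fragments over 3.61. Each was thus in the middle or the upper part of its list. All 3 also touched or lay within 1 kb of the neighbouring gene LOC124903696. Peaks of the 3 proteins at 1 gene were common: 35.5% of all genes had them, and 1 of these 9.

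The summits at NLRC5 lay close together. MYC and MED30 summits were 84 bp apart, MED30 and MED17 68 bp, and MYC and MED17 152 bp. Over all overlapping pairs on the main chromosomes the median distances were 146, 213 and 210 bp. MED30 had another peak inside NLRC5, at 57061156 to 57061687, 71.9 kb from its lower end, with a fold of 3.81 (percentile 17.4, 15 fragments over 3.20). Neither MYC nor MED17 had a peak there. At 94.0 kb NLRC5 was the longest of the 9, the next being TAP2 at 16.9 kb. Of the 20037 genes, 24.6% had the same pattern as NLRC5, with peaks in the 3 parental lists and in neither list of the shMED30 line. Among the nearest to it by the percentiles in the 5 lists were FMNL3 (distance 5.94 percentile points), CAPZB (6.56), SLC35F6 (6.71) and HACL2 (6.97).

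**Figure D2:**
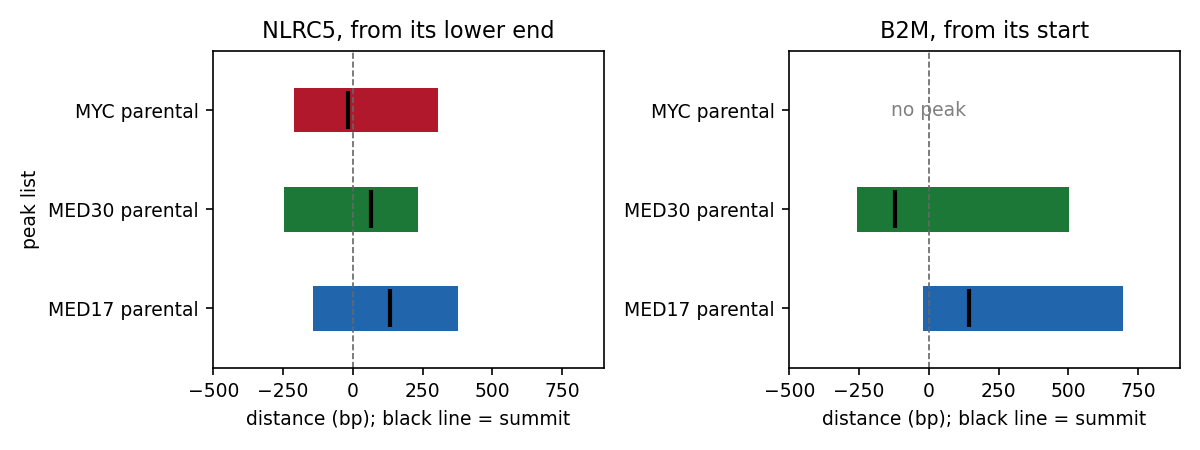
Peaks of parental MYC, MED30 and MED17 at NLRC5 (left) and B2M (right), in bp from the lower gene end; bars span the peak, black lines are summits. The 3 summits at NLRC5 lie within 152 bp, while B2M has a MED30 summit at -120 bp, a MED17 summit at 144 bp and no MYC peak.

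NLRC5 had no MYC peak in the shMED30 line, with or without doxycycline, and no other class I gene did. The nearest MYC peak to NLRC5 was at HERPUD1, 57.5 kb away with doxycycline (fold 4.05) and 57.4 kb away without it (fold 5.98). Genes with a parental MYC peak often lacked one in this line: 14.5% of 8847 such genes had a peak with doxycycline and 23.0% without. Depth differed as well, since the lowest local background in the parental MYC list was 13.8 times that with doxycycline and 8.27 times that without. Scaled by these ratios, the 33 fragments at NLRC5 correspond to 2.39 fragments with doxycycline and 3.99 without, beside smallest called pileups of 3 and 4. Both scaled values lay below the smallest called pileup of their list, the one without doxycycline by little. This depends on the use of lowest backgrounds. Median local backgrounds of peaks outside the MHC stretch described below were 4.17 for parental MYC, 0.385 with doxycycline and 0.706 without. Ratios of these medians are smaller and would give higher scaled values, no longer below the smallest called pileups. The part of depth in the missing MYC peak at NLRC5 was not tested. Since 0 of 9 genes had a peak without doxycycline, there was no class I site at which retention with doxycycline could be counted; over all genes with a no-doxycycline peak, 32.9% of 2213 kept one.

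B2M, the light chain shared by all class I molecules, had both Mediator subunits and no MYC. The gene spans 44711517 to 44718145 on chromosome 15. Its MED30 peak (44711259 to 44712019) had a fold of 5.62 at percentile 71.5, with 15 fragments over 1.84. Its MED17 peak (44711495 to 44712214) had a fold of 6.61 at percentile 85.5, the highest percentile among the 8 peaks, with 19 fragments over 2.03. The MED30 summit lay 120 bp before the gene start, inside the promoter shown above, and the MED17 summit 144 bp after it, a distance of 264 bp where the middle 50% of pairs lay between 95 and 370 bp. The neighbouring gene PATL2 lies at lower coordinates, and its near edge is shortly before the start of B2M. The MED30 peak touched PATL2, and its summit lay closer to PATL2 than to B2M. The MED17 peak lay within 1 kb of PATL2, so neither peak can be given to B2M alone. The nearest parental MYC peak was 47.7 kb away, at SPG11. Both subunits without MYC were found at 8.01% of all genes and at 1 of these 9.

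TAPBP, which encodes tapasin, had MED17 alone. The gene runs from 33299694 to 33314078 on chromosome 6, on the minus strand. A MED17 peak at 33313266 to 33313750 had its summit 372 bp inside the gene and a fold of 4.61 at percentile 38.9, with 11 fragments over 1.60. This peak also lay within 1 kb of ZBTB22. A weaker peak at 33298441 to 33298774, with a fold of 3.84 at percentile 16.0 and 9 fragments, lay 920 bp past the far end of TAPBP and within RGL2. The nearest MED30 peak was 111 kb away and the nearest parental MYC peak 104 kb away.

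The 6 genes without a peak had none close by either. HLA-C and HLA-B lie 81.8 kb apart on chromosome 6 (31268749 to 31272092 and 31353875 to 31357179). The nearest MYC peak to HLA-B with doxycycline was 97.5 kb away, with no protein-coding gene within 1 kb of it, and without doxycycline 1611 kb away. The nearest MED30 and MED17 peaks were both 295 kb away, at BAG6 and APOM, and the nearest parental MYC peak to HLA-B was 264 kb away, at PRRC2A. TAP2, PSMB8, TAP1 and PSMB9 form a block of 38.0 kb (32821831 to 32859851), in which TAP1 and PSMB9 are divergent with 488 bp between their starts. The nearest peaks to TAP1 were all at BRD2, 115 kb away for MYC in each of the 3 MYC lists and 117 kb away for MED30, except for MED17, whose nearest peak was 445 kb away. Widening the window to 5 kb added none of these genes.

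All 7 class I genes on chromosome 6 lie in a stretch in which peaks were sparse for genes of every kind. The stretch from the start of HLA-F to the end of TAPBP, 3.59 Mb, was set after the peaks were seen, and it holds 140 protein-coding genes. A MYC peak was found at 1.43% of them with doxycycline (exact 95% interval 0.173 to 5.07%), against 7.37% of the other 909 genes of chromosome 6. Without doxycycline the shares were 0.714% (0.0181 to 3.92%) and 13.0%, and for parental MYC 2.14% (0.444 to 6.13%) and 42.9%. MED30 was at 5.71% of the genes in the stretch (2.50 to 10.9%), against 48.0% of the others, and MED17 at 9.29% (5.04 to 15.4%), against 52.1%. The intervals cover counting error only and treat genes as independent. Without the 7 class I genes the shares in the stretch were 2.26% for parental MYC, 6.02% for MED30 and 9.02% for MED17. Of the 140 genes, 120 had no peak in any list, and 0 had peaks of all 3 proteins in parental cells.

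**Figure D3:**
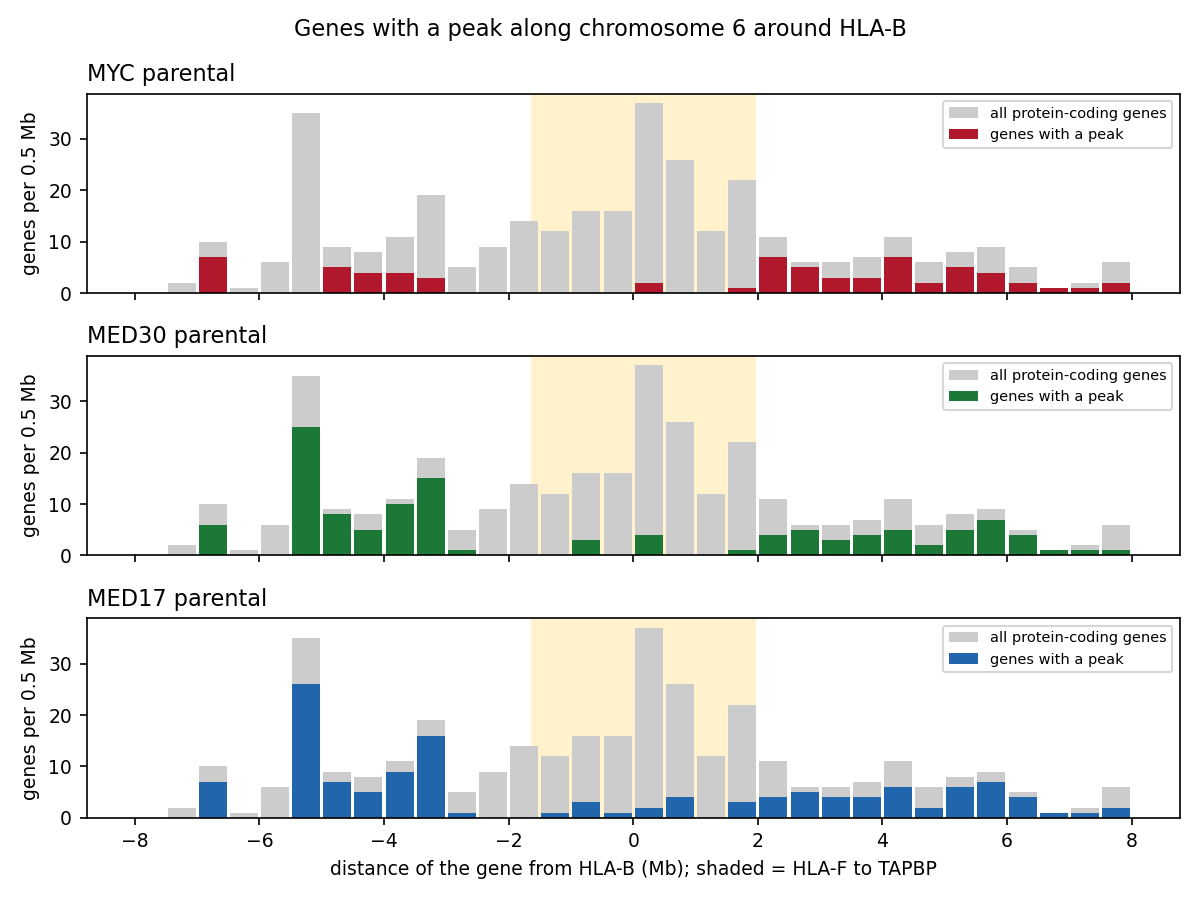
Protein-coding genes per 0.5 Mb (grey bars) and those with a peak (coloured bars, drawn over the grey) on chromosome 6, by distance of the gene from HLA-B, in the 3 lists from parental cells. In the shaded stretch from HLA-F to TAPBP, 3 of 140 genes had a parental MYC peak, 8 a MED30 peak and 13 a MED17 peak.

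Neighbouring DNA held more peaks in the parental lists. The stretch held 3 parental MYC, 6 MED30 and 9 MED17 peaks. The same length below HLA-F held 30, 78 and 74, and the same length above TAPBP 36, 36 and 37. In the shMED30 line MYC had 3 peaks in the stretch, 3 below and 9 above with doxycycline, and 1, 4 and 9 without. Of the 92 genes in the length below, 17.4% had a parental MYC peak, also less than the 42.9% of chromosome 6 outside the stretch. The sparse region reached past HLA-F, since none of the 9 genes between 2.5 and 2 Mb below HLA-B, outside the stretch, had a peak of parental MYC, MED30 or MED17. The peaks that were called in the stretch stood on little background: 2 of 3 parental MYC, 2 of 6 MED30 and 9 of 9 MED17 peaks had the lowest local background of their list, against 7.08%, 2.50% and 2.14% of peaks elsewhere on the main chromosomes. Both MED17 peaks at TAPBP were among them.

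The same chromosome 6 region is carried by hg38 in 7 alternate versions, contigs for other MHC haplotypes, and the lists hold peaks on them. There were 31 parental MYC, 47 MED30 and 62 MED17 peaks on these contigs, a mean of 4.43, 6.71 and 8.86 per contig, against 3, 6 and 9 in the stretch itself. Single contigs held 1 to 8, 1 to 13 and 1 to 17. These counts are for whole contigs, whose lengths were not matched to the stretch. Peaks on the contigs have coordinates of their own, and no genes were assigned to them here. How reads that fit several of these sequences were treated is not given in the sources used here. The part of the alternate contigs in the missing peaks at HLA-B, HLA-C, TAP1, TAP2, PSMB8 and PSMB9 was not tested, so an empty entry for these 6 genes does not show that MYC or Mediator was absent.

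**Figure D4:**
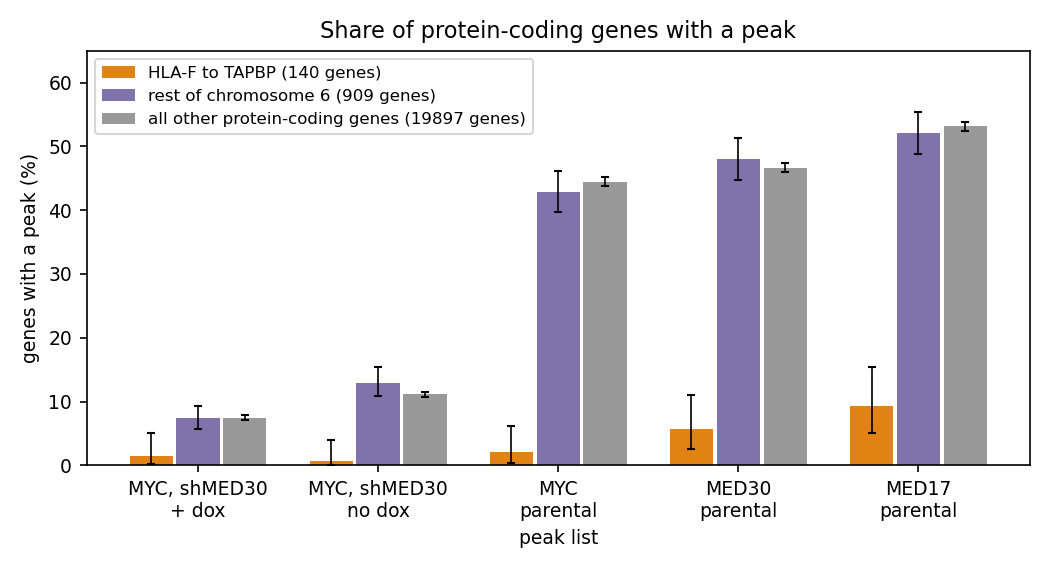
Percentage of protein-coding genes with a peak in each of the 5 lists, for the 140 genes from HLA-F to TAPBP, the other 909 genes of chromosome 6 and all 19897 genes outside the stretch; bars carry exact 95% intervals for counting error. The stretch has the lowest share in every list, from 0.714% to 9.29%.

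Other genes of the pathway were counted on either side of the same border. Taking the 9 genes with 50 others listed by role, 39 lie outside the stretch, and of these 5 had a MYC peak with doxycycline, 5 without, 26 in parental cells, 33 a MED30 peak and 37 a MED17 peak. Over all genes the shares in the same 5 lists were 7.41%, 11.0%, 44.2%, 46.4% and 52.8%, so the counts from the shMED30 line are small and near the share of all genes. Of the 20 inside, 0 had a MYC or MED30 peak in any list and 1, TAPBP, a MED17 peak. These lists were chosen with earlier results of the data known, and the difference was not tested.

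The class I heavy chains HLA-E, HLA-F and HLA-G, all in the stretch, had no peak in any list. In the MHC class II list, 9 of 11 genes are in the stretch and had none. The other two were CIITA, the class II transactivator, with a MED17 peak of fold 5.91 that also lies near DEXI, and CD74, the invariant chain, with none.

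Genes for peptide loading and trimming, all outside the stretch, were counted likewise. Of 6, 6 had a MED30 peak (46.4% of all genes), 6 a MED17 peak (52.8%) and 4 a parental MYC peak (44.2%). The highest MED30 folds were 9.24 at TAPBPL, a tapasin relative, 7.33 at the chaperone gene CALR, 6.74 at the peptidase gene ERAP1, 5.30 at the chaperone gene CANX and 4.74 at ERAP2. In the shMED30 line MYC had peaks with doxycycline at CANX (4.85) and TAPBPL (4.07). Without doxycycline it had one at CALR (5.04), which had no parental MYC peak. None of these 3 genes had MYC in both lists of this line. Over the main chromosomes, 44.7% of 4468 doxycycline peaks overlapped a no-doxycycline peak. Some of the peaks counted for TAPBPL lay near CD27 or VAMP1, some of those for CANX near CBY3 or MAML1, and some of those for ERAP1 near ERAP2 or LNPEP.

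Proteasome genes outside the stretch had MED30 and MED17 at 7 of 7 (46.4% and 52.8% of all genes) and parental MYC at 5 of 7 (44.2%). Among them was PSMB10, the remaining inducible catalytic subunit of the immunoproteasome, on chromosome 16, with folds of 5.03 for parental MYC, 4.63 for MED30 and 6.42 for MED17, whereas its partners PSMB8 and PSMB9 in the stretch had no peak. PSMB10 also had a MYC peak without doxycycline (6.86) and none with it. Over all genes with a no-doxycycline peak, 32.9% of 2213 kept one, in libraries of unlike depth. The constitutive catalytic subunits PSMB5 and PSMB6 had MED30 folds of 6.47 and 4.81. PSME2, a subunit of the interferon-inducible proteasome activator, had a MED30 fold of 5.26. PSME3, which encodes a nuclear proteasome activator, was the single pathway gene with a peak in all 5 lists, with MYC folds of 6.78 with doxycycline, 12.1 without and 13.6 in parental cells (percentiles 86.2, 97.7 and 99.1), a MED30 fold of 4.91 and a MED17 fold of 5.36.

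Of 14 interferon and NF-kB genes, which regulate class I transcription, 11 had parental MYC, 12 MED30 and 13 MED17, where the shares over all genes were 44.2%, 46.4% and 52.8%. There were MED30 folds of 7.50 at the interferon receptor gene IFNAR1, 7.38 and 6.61 at the interferon regulatory factor genes IRF2 and IRF1, and 5.30 at the NF-kB subunit gene RELA. The parental MYC peak at IRF1 was weak (2.76, percentile 1.60). In the shMED30 line MYC had peaks with doxycycline at JAK2 (4.18) and RELA (4.04), and 0 of 14 genes had one without it. Peaks in the doxycycline list alone were common: of all 4468 on the main chromosomes, 44.7% overlapped a no-doxycycline peak. Of 8 enhanceosome genes, 5 had parental MYC, 6 MED30 and 8 MED17. CREB1 (MED30 fold 6.27), NFYC (5.31), RFXANK (4.62), ATF1 (4.58) and RFX5 (4.54) were highest. MYC peaks without doxycycline lay at RFX5 (6.97) and ATF1 (4.20), and neither gene had one with it. Of all 2213 genes with a no-doxycycline peak, 32.9% kept one, and depth differed between these lists. Some of the peaks counted for RFXANK lay near BORCS8 or NR2C2AP.

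**Figure D5:**
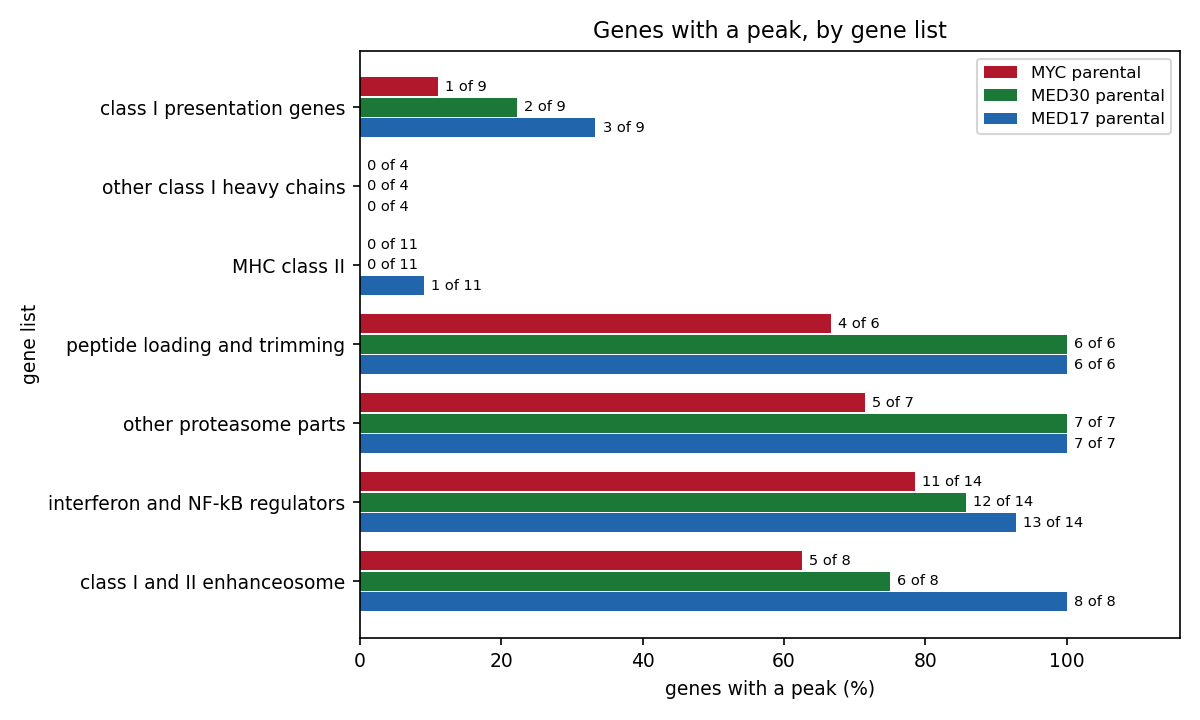
Percentage of genes with a parental MYC, MED30 or MED17 peak in each gene list, with counts beside the bars. Over all protein-coding genes the shares were 44.2%, 46.4% and 52.8%. The 9 class I presentation genes, the other heavy chains and the class II genes, most of which lie from HLA-F to TAPBP, have 0 to 3 genes with a peak, while the other 4 lists reach 6 of 6, 7 of 7, 13 of 14 and 8 of 8 for MED17.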

How the data were processed

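ChIP-seq peak lists of 5 libraries, 1 per group, were used as the authors deposited them. Trim Galore, Bowtie2, MACS2, deepTools and hg38 are named in the submitters' processing notes; versions, any input control and the handling of multiply mapped reads are not given in these sources. The authors' fold enrichment, as deposited, is a ratio of summit pileup to local background, with 1 added to each. The deposited −log10 p and −log10 q give the significance of each peak. The deposited score is 10 times −log10 q and was not used further. The smallest −log10 q in each file showed that the parental lists start at a q of 0.05 and the shMED30 lists at 0.1. Summit pileup and local background were recovered from fold and p as (pileup + 1)/(background + 1) and a Poisson tail, matching 99.6% to 99.9% of peaks in a list to 0.002 (log10), which was tested on simulated data. Peaks were assigned to RefSeq protein-coding genes within 1 kb and counted with Python 3.11.15, numpy 2.4.6 and pandas 2.3.3; intervals (Clopper-Pearson) came from scipy 1.17.1 and the promoter alignment from biopython 1.88. Overlap means at least 1 shared bp.

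All 9 genes are named; of each pathway list, up to 5 genes with the highest MED30 fold and any where the shMED30 line had MYC; some genes that these rules take are not reported here. Neighbouring genes can share a peak. The genes and lists were chosen with earlier results of these data known. Alternatives were other windows, thresholds, overlap definitions and a single gene per peak.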

Additional observations from a re-analysis of the deposited data

Results flagged for a closer look

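Peaks on contigs outside the main chromosomes enter none of the counts of genes above, and the 7 alternate MHC contigs of hg38 held a signal. They carried 5 MYC peaks with doxycycline, 8 without doxycycline, 31 parental MYC peaks, 47 MED30 peaks and 62 MED17 peaks. All 7 contigs had at least 1 peak of parental MYC, MED30 and MED17, with up to 8, 13 and 17 on a single contig. The median summit pileup on these contigs was 17 fragments for parental MYC, 14 for MED30 and 12 for MED17, against 22, 21 and 23 elsewhere on the main chromosomes. The highest parental MYC fold there was 14.2. Which genes these peaks lie at was not examined.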

How the results depend on the processing

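Of 82 recomputed counts, 68 stayed within 1.5 times the reported one or at the same value. All 49 recomputed folds were identical, but a fold is deposited with its peak and these settings do not recompute it. Where a setting dropped the peaks of a gene, no fold was counted. The number of class I genes with a peak was 0 in both lists of the shMED30 line under every setting run. With peaks within 1 kb of the RefSeq gene start, NLRC5 could not be placed. There 0 genes had parental MYC, 1 had MED30, 0 had all 3 proteins and 1 MED30 peak overlapped MED17. The shares over all genes were then 33.3% for parental MYC, 35.4% for MED30 and 26.8% for all 3. With peaks below the median fold of their list left out, 1 gene had MED17, 0 had all 3 and 1 MED30 peak overlapped MED17. All genes then had shares of 30.5% for MED17 and 9.89% for all 3. An equal number of 4621 top peaks by p in each list was also used. Under it 0 genes had MED30, 0 had MED17, 0 had all 3 and 0 MED30 peaks overlapped MED17. The shares over all genes also fell, to 20.7% for MED30, 22.5% for MED17 and 5.96% for all 3. With each peak given to the gene nearest its summit, 1 gene had MED30 (40.6% of all genes) and 1 MED30 peak overlapped MED17. Here PATL2 took the B2M peak. With summits required within 250 bp, 1 MED30 peak overlapped MED17, against 2 otherwise. Over all MED30 peaks the share was 44.3%, against 77.6% otherwise. Gene body alone, 5 kb, a q of 0.01, a common q of 0.05, both gene ends, leaving out the 7 genes from HLA-F to TAPBP (an addition after the data were seen, as was both gene ends), 1 merged region for all 3 proteins and a reciprocal overlap of 50% left every count they recomputed within that range. No paired analysis was possible because each group has 1 library. Low depth limits what the shMED30 lists can show.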

Other observations

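Apart from TAPBP, 19 genes from HLA-F to TAPBP had a peak in some list, and none of them is a class I or class II gene. BRD2, which encodes a chromatin reader of acetylated histones and lies between the TAP genes and TAPBP, had a peak in 4 lists, with MYC folds of 4.85 with doxycycline, 8.18 without and 5.72 in parental cells and a MED30 fold of 3.23. PRRC2A had MYC with doxycycline (5.06) and in parental cells (5.89). VARS1, a valine tRNA synthetase gene, had parental MYC alone (6.17). TUBB, a tubulin gene, had both Mediator subunits (MED30 4.74, MED17 4.99), as did the neighbours BAG6 and APOM (MED30 5.28, MED17 4.61).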
